A study of Homo sapiens with 6 samples.

Results

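The genes described here are the zinc finger genes of human chromosome 19, chosen by type, chromosome and name alone: protein-coding genes of chromosome 19 whose name is ZNF followed by digits and at most 1 letter. The rule gave 247 genes of the 60612 in the deposited table, and no expression value entered the choice. Gene positions are those of the table, on GRCh38. The study sequenced RNA of SH-SY5Y, an established human neuroblastoma line, after infection. In 3 libraries the vector is labelled as a vector for overexpression of CDKN2B-AS1, the noncoding RNA also known as ANRIL, and in 3 libraries it is a control (stuffer) vector. Both groups therefore carry a vector, and both come from a single line. In the table the overexpression columns are tagged LVx2 and the control vector columns LVx1; the labels leave these tags unexplained, and whatever they mark cannot be told apart from the overexpression. Whether replicates were separate cultures is not stated, so the error behind each p-value may be technical.

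Most zinc finger proteins of chromosome 19 are transcription factors in which a row of C2H2 fingers reads DNA and a KRAB domain recruits the corepressor TRIM28. TRIM28 in turn brings the histone methyltransferase SETDB1 and heterochromatin proteins to the bound site, and many of these complexes sit on retrotransposons. The genes arose by repeated duplication and lie in clusters along the chromosome, and in many tissues each is transcribed at a low level.

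The duplicated structure was read from the longest coding transcript of each gene in GENCODE v29, which places all 247 genes where the table does. The median coding part was 1776 bases in 4 coding exons, with 87.3% of it in the longest exon, which in these genes usually encodes the fingers. The conserved linker between neighbouring fingers was searched as a 14-base pattern in which the last base of each of the first 4 codons is free. It occurred on the coding strand in 214 of the 247 genes (86.6%), against 66.8% of 262 ZNF genes on other chromosomes and 2.83% of 19520 protein-coding genes with a transcript. Consecutive matches were exactly 84 bases apart, the length of a finger with its linker, in 822 of 1285 cases (64.0%). A repeat is shown for 4 of the genes described below to make the likeness of the copies visible, with the linker letters in capitals at either end.
ZNF91: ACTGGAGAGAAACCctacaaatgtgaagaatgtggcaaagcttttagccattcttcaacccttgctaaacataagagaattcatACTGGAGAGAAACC
ZNF708: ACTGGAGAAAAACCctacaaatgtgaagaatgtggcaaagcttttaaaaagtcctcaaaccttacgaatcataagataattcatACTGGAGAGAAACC
ZNF615: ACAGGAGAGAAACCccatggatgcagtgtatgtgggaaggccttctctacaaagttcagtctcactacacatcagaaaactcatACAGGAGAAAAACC
ZNF627: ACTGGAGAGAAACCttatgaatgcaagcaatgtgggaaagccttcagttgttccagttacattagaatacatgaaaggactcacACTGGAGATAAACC
The stretches start at coding base 865 in ZNF91, 571 in ZNF708, 964 in ZNF615 and 652 in ZNF627, counted from the start codon, and each is 98 bases long. The ZNF708 stretch is identical to that of ZNF91 at 87 of 98 bases, the ZNF627 stretch at 68 and the ZNF615 stretch at 63. Over whole transcripts, 95 of the 247 genes shared at least a single 100-base window with another gene, 37 shared over 10% of their windows and 10 over 50%. The share was 99.5% in ZNF320, mostly with ZNF468. The ZNF468 transcript used here shared only 2.00% of its own windows, mostly with ZNF28. The share was 96.9% in ZNF625 and 95.5% in ZNF177, each mostly with a readthrough gene annotated over the same place. Shared windows thus include stretches annotated under more than a single gene as well as copies. The level of genes with many shared windows is uncertain, since the counting could split their reads. Exon bases were also shared with another gene of the table in 143 of the 247 genes, and the sources used here do not say whether reads were counted by strand.

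Promoter windows of 250 bases before to 50 after the start were found in RefSeq (GRCh38.p14) for 216 of the 247 genes. The ETS core CCGGAA occurred on either strand in 120 of these windows (55.6%), against 45.2% of 210 windows of ZNF genes on other chromosomes and 23.0% of 15193 windows of all protein-coding genes. The CCAAT letters occurred in 117 (54.2%), against 43.3% and 36.6%, and the GGGCGG box bound by SP1 in 145 (67.1%), against 61.0% and 59.1%. The TATAAA box occurred in 5 windows (2.31%), against 3.81% and 9.68%. Windows are printed for ZNF581, the gene nearest the test threshold, for ZNF256, with the largest difference downward, and for ZNF708, with the smallest p among the genes that were higher, with the letters of the SP1, CCAAT and ETS motifs on either strand in capitals.
ZNF581 promoter, chr19:55643399-55643698, plus strand: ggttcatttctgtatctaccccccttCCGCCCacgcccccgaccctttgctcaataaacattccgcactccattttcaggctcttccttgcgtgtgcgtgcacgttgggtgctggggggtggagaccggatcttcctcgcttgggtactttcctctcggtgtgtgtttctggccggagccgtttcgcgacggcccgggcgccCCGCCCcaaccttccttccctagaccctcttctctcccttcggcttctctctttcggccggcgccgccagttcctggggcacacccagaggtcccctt
ZNF256 promoter, chr19:57947657-57947956, minus strand: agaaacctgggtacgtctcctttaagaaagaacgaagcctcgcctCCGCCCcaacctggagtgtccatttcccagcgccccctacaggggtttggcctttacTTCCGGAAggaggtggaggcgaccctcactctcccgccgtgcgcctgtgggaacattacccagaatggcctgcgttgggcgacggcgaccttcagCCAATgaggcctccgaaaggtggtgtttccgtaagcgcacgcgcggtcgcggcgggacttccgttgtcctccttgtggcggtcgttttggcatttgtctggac
ZNF708 promoter, chr19:21329361-21329660, minus strand: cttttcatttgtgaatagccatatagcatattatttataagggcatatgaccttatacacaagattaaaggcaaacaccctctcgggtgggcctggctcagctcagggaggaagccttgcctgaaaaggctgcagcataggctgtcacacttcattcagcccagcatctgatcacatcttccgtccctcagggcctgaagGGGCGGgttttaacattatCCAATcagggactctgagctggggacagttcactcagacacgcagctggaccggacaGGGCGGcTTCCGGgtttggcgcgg
The ZNF581 window holds 23 CpG dinucleotides and the SP1 letters, but neither the CCAAT nor the ETS letters. The ZNF256 window holds 26 CpG dinucleotides and all of the 3 motifs, and its ETS letters read on both strands at the same place. The ZNF708 window holds 9 CpG dinucleotides and also all of the 3 motifs. The windows of ZNF404 and ZNF615, which followed ZNF256 by p, hold none of them. The ZNF404 window (chr19:43883915-43884214, minus strand) and the ZNF581 window lie inside the deposited spans of these genes, given below. These 2 windows therefore need not mark where the measured RNA starts.

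Depth was 20466583 to 48996425 fragments in overexpression libraries and 29048596 to 45102020 in control vector libraries. A median of 204, 155 and 424 fragments fell on a chromosome 19 ZNF gene in overexpression replicates 1, 2 and 3, and 284, 178 and 310.5 in control vector replicates 1, 2 and 3. CDKN2B-AS1 itself stood at 0.338, 0.304 and 0.353 FPKM (fragments per kilobase of gene, scaled to library depth) in overexpression libraries and at 0.272, 0.288 and 0.191 FPKM in control vector libraries. Every overexpression library lay above every control vector library, by a ratio of 1.33 between the means, and the exact two-sided permutation test gave p = 0.1, the smallest that 3 against 3 libraries allow. This FPKM is per kilobase of the whole deposited gene length, and the sources used here do not say which isoform the vector carries, so the ratio need not measure the transcript made from the vector. Of 10 sympathetic neuroblastoma markers, 9 reached 1 FPKM in at least 3 libraries, TH being the exception, and their summed level was 993 to 1083 FPKM in overexpression and 878 to 1051 in control vector libraries. Epithelial and immune markers reached it for 0 of 5 genes each. Of 7 fibroblast markers 5 reached it, with sums of 45.3 to 51.2 FPKM in overexpression and 41.3 to 53.9 in control vector libraries, and of 4 Schwann and glial markers only S100B did, with sums of 3.28 to 3.46 and 2.89 to 6.81 FPKM in the same order of groups.

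The zinc finger genes were expressed at low levels. Averaged over the 6 libraries, the median gene stood at 1.39 FPKM, 85 of 247 genes were under 1 FPKM, 88 lay between 1 and 2, 57 between 2 and 5, and 17 at 5 or more. The 10 highest held 23.0% of the summed level. All were detected in some library, but ZNF296, ZNF418, ZNF534, ZNF723 and ZNF728 stayed under 3 fragments in every library, too few for any comparison.

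The highest were ZNF581, ZNF146, ZNF574, ZNF317 and ZNF627. ZNF146, a protein made almost only of fingers, stood at 11.7, 14.4 and 17.7 FPKM in overexpression and at 11.3, 14.5 and 20.5 FPKM in control vector libraries. ZNF574 stood at 16.1, 12.2 and 14.3 FPKM in overexpression and at 16.2, 16.5 and 9.81 FPKM in control vector libraries. ZNF317 stood at 13.7, 13.7 and 12.6 FPKM in overexpression and at 9.09, 12.9 and 13.5 FPKM in control vector libraries. The groups overlap for all of these 3 genes. Their log2 fold changes, on log2(FPKM + 0.5) and overexpression over control vector throughout, were -0.05 for ZNF146, 0.03 for ZNF574 and 0.18 for ZNF317, with 95% intervals of -0.55 to 0.44, -0.43 to 0.49 and -0.19 to 0.56. All of these intervals lay within 1.5-fold either way.

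More of these genes passed 1 FPKM in overexpression libraries. The number at or above 1 FPKM was 161, 159 and 164 of 247 in overexpression replicates 1, 2 and 3 and 139, 133 and 152 in control vector replicates 1, 2 and 3. Overexpression replicates 1 and 2 were the shallowest libraries, and the part of depth in these counts was not tested. The order of the groups was the same after scaling to a common sum, with 162 to 169 genes in overexpression and 128 to 150 in control vector libraries, and after median-of-ratios scaling, with 154 to 164 and 134 to 152. All 3 overexpression libraries passed 1 FPKM for 130 genes and all 3 control vector libraries for 98. The same direction held over all 19942 protein-coding genes, with 10391 to 10491 at 1 FPKM in overexpression and 10053 to 10190 in control vector libraries, and over the 262 ZNF genes of other chromosomes, with 167 to 182 and 156 to 162. For the other 1222 protein-coding genes of chromosome 19 the ranges met, 600 to 608 in overexpression and 596 to 605 in control vector libraries. The summed level of the zinc finger genes overlapped between the groups, at 495, 504 and 570 FPKM in overexpression and 508, 490 and 541 FPKM in control vector libraries. Medians of these genes also overlapped, at 1.33, 1.38 and 1.57 FPKM in overexpression and 1.22, 1.14 and 1.35 FPKM in control vector libraries. In each library 111 to 123 of the 247 genes lay within 2-fold of 1 FPKM, against 2918 to 3055 of the 19942 protein-coding genes. Small shifts can therefore move many zinc finger genes across this cut. In bulk RNA, fewer cells of a type and less RNA per cell cannot be told apart.

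Libraries of the control vector group also lay further apart. The median standard deviation between the 3 libraries of a group, on log2(FPKM + 0.5), was 0.27 in overexpression and 0.37 in control vector libraries over the 168 tested genes, and it was larger in the control vector group for 110 of them (65.5%). Over all 13984 tested genes the control vector group had the larger spread for 63.5%.

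**Figure D1:**
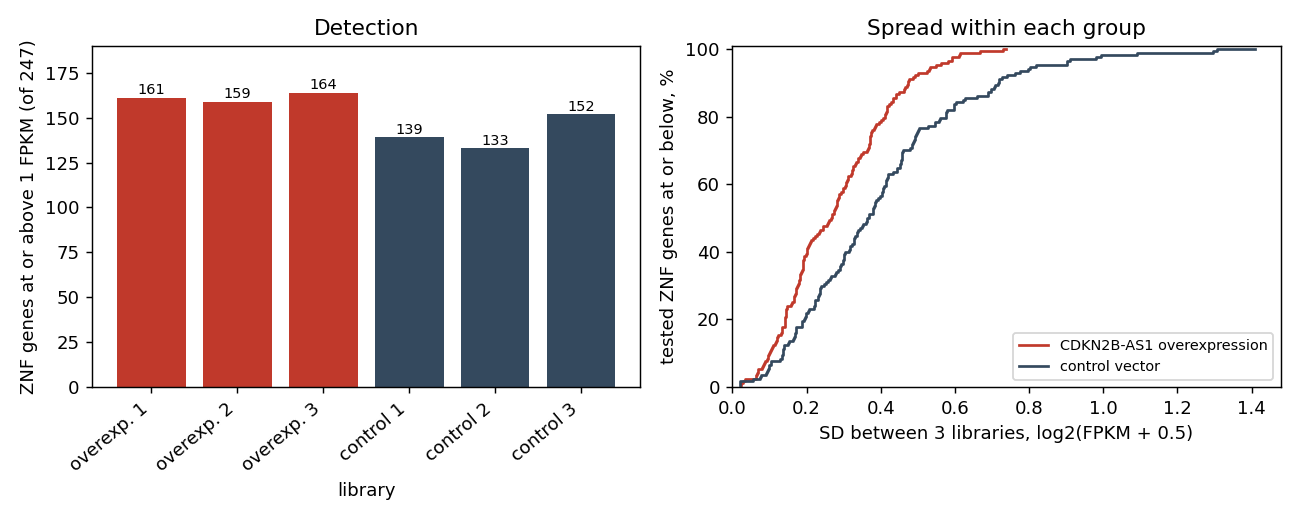
Left, the number of the 247 chromosome 19 ZNF genes at or above 1 FPKM in each library, as bars from 0. Right, the cumulative share of the 168 tested genes, in percent, by the standard deviation between the 3 libraries of a group on log2(FPKM + 0.5). The overexpression bars (159 to 164) stand above the control vector bars (133 to 152), and the overexpression curve lies to the left, at a median of 0.27 against 0.37.

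The question the design puts to these genes is whether CDKN2B-AS1 overexpression goes with a change in their RNA. Of the 247 genes, 168 had at least 1 FPKM in at least 3 of the 6 libraries and were tested with limma-trend on log2(FPKM + 0.5). None passed a Benjamini-Hochberg adjusted p of 0.05 over all 13984 tested genes, 0 higher and 0 lower, where 1.14% of all tested genes did (0.529% higher and 0.608% lower). That background of 159 genes became 0 when overexpression replicate 1, 2 or 3 or control vector replicate 2 was left out, 3 without control vector replicate 1 and 124 without control vector replicate 3. With limma-voom on fragments 0 of 168 passed, against 0.908% of all tested genes. At an unadjusted p under 0.05 there were 21 of the 168 (12.5%), 11 higher and 10 lower, against 17.7% of all tested genes (10.4% higher and 7.34% lower), and 24 with limma-voom, against 17.5%. Non-overlapping groups were seen in 23 of the 168 (13.7%), 12 higher and 11 lower in overexpression, against 24.1% of all tested genes (14.2% higher and 9.9% lower). The median log2 fold change of the 168 was 0.11, with quartiles of -0.17 and 0.36, beside 0.05 over all tested genes, 0.09 over 176 tested ZNF genes of other chromosomes and 0.04 over 611 other tested genes of chromosome 19. Values above 0 made up 61.9% of the 168 and 56.8% of all tested genes.

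The missing calls do not show that the genes were the same in both groups. The median standard error was 0.27 for these genes and 0.20 over all tested genes, on the log2 scale. The 95% interval lay within 2-fold either way for 104 of the 168 and within 1.5-fold either way for 15. Among genes with a mean under 2 FPKM the median log2 fold change was 0.14 over 94 zinc finger genes and 0.12 over all 2980 tested genes at that level, and at 5 FPKM or more it was 0.03 over 17 zinc finger genes and 0.01 over 7405. Calls over all genes were 4 higher and 2 lower under 2 FPKM, 7 and 4 at 2 to 5, and 63 and 79 at 5 or more. Under 2 FPKM an unadjusted limma-trend p under 0.05 was seen in 9.57% of the zinc finger genes and 10.3% of all tested genes. At 2 to 5 FPKM it was 17.5% and 13.8%, and at 5 FPKM or more 11.8% and 22.6%. Groups stood apart in 12.8% and 18.2%, 15.8% and 20.6%, and 11.8% and 28.2%, in the same order of levels. The 79 untested genes had a median of 0.460 FPKM in overexpression and 0.379 FPKM in control vector libraries, and 52 of them had the higher mean in overexpression.

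The gene nearest the threshold was ZNF581, also the most abundant of them. ZNF581 (ENSG00000171425, chr19:55635459-55645623, plus strand) stood at 18.3, 16.5 and 21.9 FPKM in overexpression and at 27.8, 35.9 and 29.9 FPKM in control vector libraries. Every overexpression library lay below every control vector library. The means were 18.9 ± 2.80 and 31.2 ± 4.2 FPKM in the same order (SD, n = 3 each), the log2 fold change was -0.71 (SE 0.15), and the limma-trend adjusted p was 0.0564. ZNF581 shares 24.9% of its exon bases with ZNF580 and 7.46% with CCDC106 on the same strand. ZNF580 itself averaged 9.41 ± 1.70 FPKM in overexpression and 9.83 ± 0.694 FPKM in control vector libraries, a log2 fold change of -0.07. The call for ZNF581 turned with the setting: the limma adjusted p was 0.0406 with median-of-ratios scaling and 0.0334 with array weights, and 0.119 with limma-voom.

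ZNF256 had the largest difference downward. ZNF256 (chr19:57940833-57947706, minus strand), a KRAB zinc finger gene near the distal end of the long arm, stood at 2.04, 1.08 and 3.19 FPKM in overexpression and at 4.67, 5.16 and 8.66 FPKM in control vector libraries. The groups do not overlap, and the limma-voom fold was 0.336 with a 95% interval of 0.179 to 0.632. Its log2 fold change was -1.39 (SE 0.33, limma-trend adjusted p = 0.0792), and it shares no exon bases with another gene. ZNF404 (chr19:43872365-43901385) stood at 0.411, 0.493 and 1.05 FPKM in overexpression and at 1.84, 1.77 and 2.07 FPKM in control vector libraries, a log2 fold change of -1.09 (SE 0.28, limma-trend adjusted p = 0.0972). A same-strand noncoding gene covers 17.6% of the ZNF404 exon bases and had a log2 fold change of -0.43. ZNF615 (chr19:51991332-52008230) stood at 0.823, 1.19 and 1.2 FPKM in overexpression and at 2.96, 2.34 and 2.00 FPKM in control vector libraries, a log2 fold change of -0.90 (SE 0.24, limma-trend adjusted p = 0.109). For both genes the highest overexpression library lay below the lowest control vector library.

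ZNF627 (chr19:11559374-11619161), among the 5 most abundant, averaged 9.48 ± 0.987 FPKM in overexpression and 13.4 ± 1.37 FPKM in control vector libraries (SD, n = 3 each). Its libraries were tight and apart, at 9.23, 8.65 and 10.6 FPKM in overexpression and at 12.8, 12.4 and 15.0 FPKM in control vector libraries, with a log2 fold change of -0.48 (limma-trend adjusted p = 0.146). ZNF233, ZNF575, ZNF837 and ZNF91 had log2 fold changes of -0.86, -0.62, -0.60 and -0.59, and ZNF93 one of -0.25, all with groups that do not overlap and limma-trend adjusted p-values of 0.209 to 0.576. ZNF575 shares 7.39% of its exon bases with ETHE1 on the opposite strand, which had a log2 fold change of -0.61. ZNF497, named here after its values were seen, is the remaining gene with lower and non-overlapping values, at a log2 fold change of -0.22.

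In the other direction ZNF708 was clearest. ZNF708 (chr19:21291160-21329425, minus strand), a relative of ZNF91 in the cluster nearest the centromere on the short arm, stood at 3.40, 1.88 and 2.96 FPKM in overexpression and at 0.863, 1.02 and 1.51 FPKM in control vector libraries. All overexpression libraries lay above all control vector libraries, and the limma-voom fold was 2.45. Its log2 fold change was 0.98 (95% interval 0.38 to 1.58, limma-trend adjusted p = 0.117), and it shares no 100-base window with another gene. ZNF443 stood at 4.75, 4.42 and 5.31 FPKM in overexpression and at 3.88, 1.75 and 2.49 FPKM in control vector libraries, a log2 fold change of 0.78. ZNF222 stood at 2.31, 2.74 and 3.50 FPKM in overexpression and at 0.955, 2.23 and 1.03 FPKM in control vector libraries, a log2 fold change of 0.86. Control vector replicate 1 came nearest to the overexpression libraries for ZNF443 and control vector replicate 2 for ZNF222. ZNF443 shares 19.8% of its windows and ZNF222 13.4% with other genes, so their levels are less certain. On the same strand ZNF443 shares 4.13% of its exon bases with CTD-3105H18.16, whose log2 fold change was 0.75 with groups that do not overlap. It shares 3.57% with CTD-3105H18.18, which fell short of the filter, at 0.41 with overlapping groups. ZNF222 shares 17.2% with AC084219.2, at 0.14 with overlapping groups. The part of these partners in either value was not tested. ZNF552, ZNF555, ZNF625, ZNF90, ZNF121 and ZNF439 had log2 fold changes of 0.79, 0.67, 0.63, 0.49, 0.47 and 0.46 with groups that do not overlap. The limma-trend adjusted p-values of these 6 genes and of ZNF443 and ZNF222 lay between 0.158 and 0.338. ZNF675 and ZNF814, named here after their values were seen, are the remaining genes with higher and non-overlapping values, at log2 fold changes of 0.31 and 0.23.

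**Figure D2:**
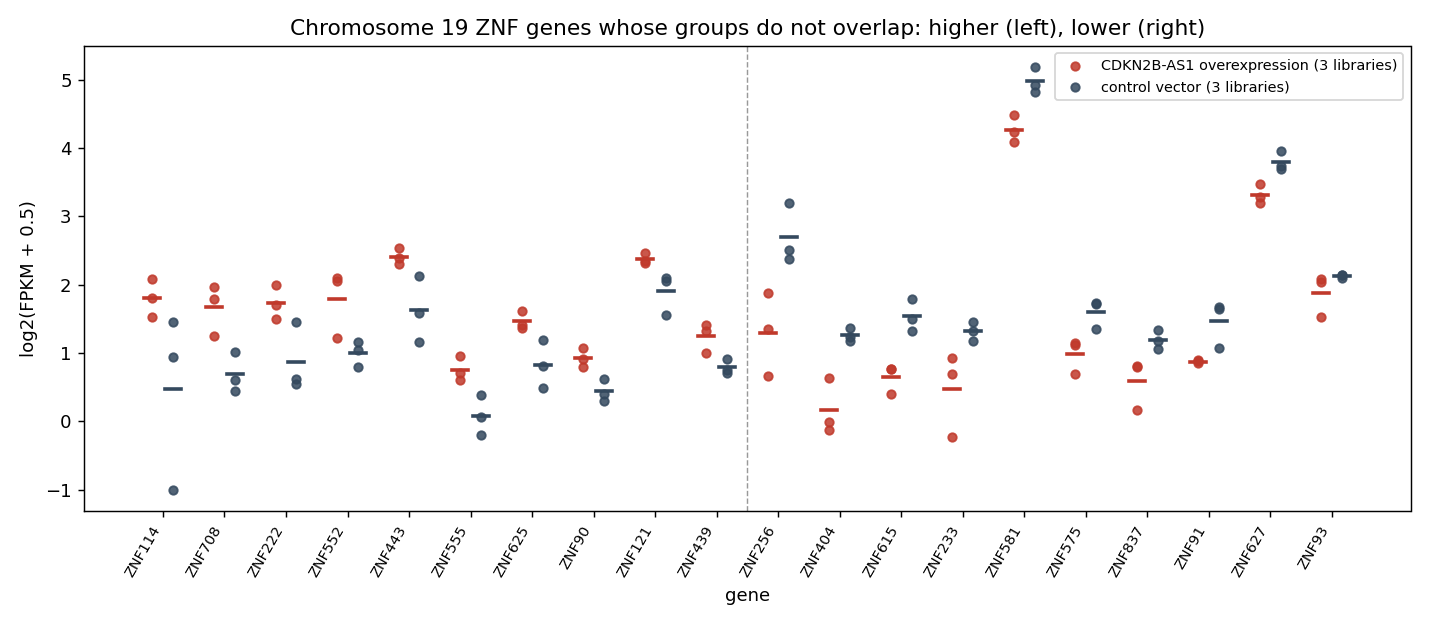
Level in each library, as log2(FPKM + 0.5), of the 20 chromosome 19 ZNF genes with the largest differences among those whose groups do not overlap, higher in overexpression on the left and lower on the right. Points are libraries and short lines are means of 3, and the control vector point of ZNF114 at -1 is a library with 0 fragments.

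For 2 genes with the largest positive log2 fold changes a single library set the size. ZNF14 had 220, 194 and 690 fragments in overexpression libraries and 201, 240 and 0 in the control vector libraries, the 0 in replicate 3, and its log2 fold change of 1.41 was 0.63 without control vector replicate 3. ZNF114 had 247.5, 146 and 551 fragments in overexpression and 193.5, 196 and 0 fragments in control vector libraries, and its log2 fold change of 1.33 was 0.60 without that library. ZNF611 had 30.27 fragments in the same library, against 281.66 and 377.12 in the other control vector libraries. These 3 were the genes with at least 1 FPKM in every overexpression library and under 0.1 FPKM in a control vector library, and the reverse held for 0 genes. Control vector replicate 3 held 43413832 fragments in all, and the cause of these low values was not tested.

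Along the chromosome, a gap of over 1 Mb between consecutive starts divided the 247 genes into 16 clusters, of which 9 held at least 3 tested genes. The median log2 fold change was above 0 in 7 of the 9. It was highest in the cluster at 11.48 to 12.64 Mb, at 0.46, where 12 of 14 tested genes lay above 0, 3 of them with non-overlapping groups (ZNF439, ZNF443 and ZNF625), while ZNF627 lay below 0, also with non-overlapping groups. Over all tested genes 14.2% were higher with non-overlapping groups and 9.9% lower. The summed level of the 25 genes of this cluster was 40.8, 44.3 and 50.8 FPKM in overexpression and 38.7, 36.1 and 43.8 FPKM in control vector libraries, so the groups overlap. The 6 other tested protein-coding genes between its ends had a median log2 fold change of 0.14. Several genes of this cluster share stretches with another gene, so the 12 genes above 0 need not be separate readings. Shared windows made up 96.9% of ZNF625, mostly with ZNF625-ZNF20, and 19.8% of ZNF443, mostly with ZNF799. ZNF439 and ZNF627 shared 0 windows. The part of shared reads in the cluster median was not tested.

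The 3 largest clusters lay on either side of 0. The cluster at 19.67 to 24.13 Mb, which holds the ZNF91 family that expanded in primates, had a median of 0.14 over 24 tested genes, with ZNF708 and ZNF91 on opposite sides of 0. The cluster at 51.57 to 53.58 Mb had a median of -0.13 over 25 genes, 11 of them above 0. The distal cluster at 55.48 to 58.48 Mb, with ZNF581 and ZNF256, had a median of 0.19 over 41 genes, 27 of them above 0, although its summed level was 139, 134 and 148 FPKM in overexpression and 144, 150 and 143 FPKM in control vector libraries. In the cluster at 36.18 to 37.82 Mb the median was -0.05 over 18 genes, and in 0 of them did the groups stand apart, against 24.1% of all tested genes. The other clusters had medians of 0.30 over 3 genes at 2.82 to 2.94 Mb, 0.02 over 12 at 7.07 to 9.79 Mb, 0.12 over 5 at 34.68 to 34.96 Mb and 0.06 over 19 at 43.53 to 45.08 Mb. The last of these held ZNF222 above 0 and ZNF404, ZNF233 and ZNF575 below 0, all with non-overlapping groups.

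Of the most abundant genes of the other clusters, ZNF77, ZNF333, ZNF507, ZNF792, ZNF45 and ZNF880 had overlapping groups, while ZNF114, described above, did not. ZNF77, at the tip of the short arm, stood at 3.70, 3.88 and 6.65 FPKM in overexpression and at 2.99, 4.96 and 3.19 FPKM in control vector libraries. ZNF333, alone in its cluster, stood at 1.32, 1.48 and 1.59 FPKM in overexpression and at 0.611, 0.626 and 1.79 FPKM in control vector libraries. ZNF507, also alone, stood at 1.43, 1.52 and 1.81 FPKM in overexpression and at 1.98, 1.73 and 0.656 FPKM in control vector libraries. Control vector replicate 3 was the highest of the 6 libraries for ZNF333 and the lowest for ZNF507. The 95% interval of the log2 fold change was -0.25 to 1.18 for ZNF333 and -0.54 to 0.86 for ZNF507, and it was narrower for ZNF792 (-0.29 to 0.39), ZNF45 (-0.57 to 0.50) and ZNF880 (-0.65 to 0.32).

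Differences of neighbouring genes were weakly related. The log2 fold changes of 167 pairs of consecutive tested zinc finger genes had a Pearson correlation of 0.080 and the same sign in 93 pairs (55.7%). Over 10474 pairs of neighbouring protein-coding genes of all chromosomes the correlation was 0.112 and the same sign was seen in 56.2%. Leaving out genes that share exon bases gave a correlation of -0.042 over 66 pairs. These pairs share libraries, and some share reads. Across the 168 genes the log2 fold change had a Spearman correlation of -0.034 with gene length, -0.062 with the number of linker matches, 0.111 with the share of windows held in common with other genes and -0.151 with the mean level. The correlation with gene length over all 13984 tested genes was 0.217.

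**Figure D3:**
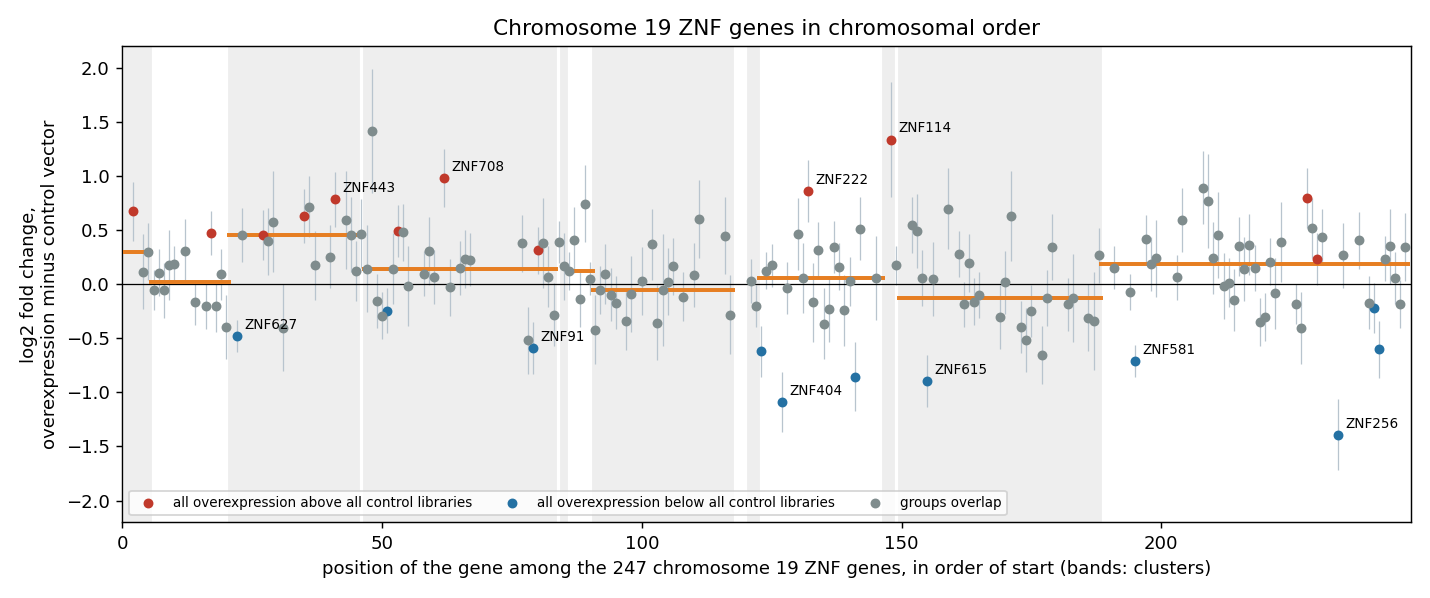
Log2 fold change, overexpression minus control vector, of the 168 tested chromosome 19 ZNF genes against their rank among all 247 by start position. Vertical lines are standard errors, grey and white bands are clusters, orange lines are medians of clusters with at least 3 tested genes, and colours mark genes whose 3 overexpression libraries all lie above (12 genes) or all below (11 genes) the control vector libraries.

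Among genes with a role known from earlier work, ZNF91 and ZNF93 silence retrotransposons, ZNF91 those of the SVA family and ZNF93 a group of L1 elements. ZNF91 (chr19:23304991-23395471) stood at 1.34, 1.3 and 1.36 FPKM in overexpression and at 2.69, 1.61 and 2.63 FPKM in control vector libraries. The overexpression libraries were nearly equal and lay below all control vector libraries. The limma-voom fold was 0.577, with a 95% interval of 0.392 to 0.849 that is not adjusted for the number of genes. The log2 fold change of the main fit was -0.59, and ZNF91 passed in 0 of the 17 alternatives (limma adjusted p of 0.149 to 0.473). ZNF93 stood at 2.38, 3.74 and 3.60 FPKM in overexpression and at 3.92, 3.90 and 3.80 FPKM in control vector libraries, so that overexpression replicate 1 made most of the difference. ZNF274, which binds the 3′ ends of zinc finger genes of this chromosome and recruits SETDB1 there, stood at 1.33, 1.95 and 1.84 FPKM in overexpression and at 0.907, 1.64 and 0.992 FPKM in control vector libraries, with overlapping groups.

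ZNF304 has been linked to silencing of the INK4-ARF locus, next to CDKN2B-AS1, in colorectal cancer cells. It stood at 4.22, 2.32 and 3.03 FPKM in overexpression and at 0.938, 0.930 and 4.15 FPKM in control vector libraries. Control vector replicate 3 stood with the overexpression libraries, and the log2 fold change of 0.77 (SE 0.43, limma-trend adjusted p = 0.389) was 1.33 without it (limma-trend adjusted p = 0.0568). That was the smallest of the limma adjusted p-values over the 17 alternatives, which reached 0.683. The log2 fold change lay between 0.48 and 1.33 in them, and ZNF304 passed in 0. The noncoding gene CTC-444N24.13 on the opposite strand covers 6.61% of the ZNF304 exon bases. CTC-444N24.13 stood at 0.973, 0.748 and 0.762 FPKM in overexpression and at 0.286, 0.148 and 1.09 FPKM in control vector libraries. Its part in the ZNF304 value was not tested. ZNF536, a regulator of neuronal differentiation, stood at 3.74, 4.53 and 4.97 FPKM in overexpression and at 3.06, 3.76 and 2.92 FPKM in control vector libraries. A single control vector library reached just above the lowest overexpression library, and the log2 fold change was 0.39 (95% interval -0.04 to 0.82). The same-strand gene CTD-2001J20.1 covers 10.4% of the ZNF536 exon bases and stood at 2.34, 1.47 and 3.15 FPKM in overexpression and at 1.05, 0.600 and 1.17 FPKM in control vector libraries, with groups that do not overlap and a log2 fold change of 0.95 (limma-trend adjusted p = 0.155). Its part in the ZNF536 value was not tested, and 16.6% of the 100-base windows of ZNF536 are shared with other genes. ZNF473, a subunit of the machinery that cleaves histone pre-mRNA, stood at 8.24, 6.93 and 6.50 FPKM in overexpression and at 6.74, 5.19 and 7.22 FPKM in control vector libraries, with overlapping groups.

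The groups overlapped for the remaining genes named for their roles. The imprinted gene ZNF331 averaged 1.26 ± 0.319 FPKM in overexpression and 0.955 ± 0.138 FPKM in control vector libraries (SD, n = 3 each). ZNF224, a repressor of aldolase A transcription, stood at 1.08, 0.907 and 1.98 FPKM in overexpression and at 2.90, 1.40 and 1.33 FPKM in control vector libraries. The noncoding gene AC084219.4 on the opposite strand covers 42.3% of the ZNF224 exon bases. AC084219.4 stood at 1.03, 0.67 and 1.77 FPKM in overexpression and at 2.59, 1.41 and 1.015 FPKM in control vector libraries. Its part in the ZNF224 value was not tested. ZNF568, whose mouse counterpart represses a placental Igf2 promoter, stood at 1.00, 1.83 and 1.56 FPKM in overexpression and at 2.59, 0.930 and 2.92 FPKM in control vector libraries. ZNF649 stood at 1.81, 1.91 and 2.37 FPKM in overexpression and at 0.977, 1.82 and 1.01 FPKM in control vector libraries, a log2 fold change of 0.54, and ZNF649-AS1 on the opposite strand, which covers 7.07% of its exon bases, had one of 0.45. ZNF431, whose mouse counterpart represses Ptch1, fell short of the filter, at 0.585, 0.557 and 0.667 FPKM in overexpression and 0.897, 0.540 and 0.428 FPKM in control vector libraries.

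A list of 32 corepressor and heterochromatin genes was also read, all tested. It includes partners of KRAB zinc finger proteins, such as TRIM28, but is not limited to them. Of these 1 passed the test upward and 0 downward, and 31 did not pass, with a median log2 fold change of 0.10 and 20 above 0. Over all tested genes 1.14% passed, the median was 0.05 and 56.8% lay above 0. UHRF1, which lies on chromosome 19 itself and guides DNMT1 to newly replicated DNA, rose to 42.9, 50.3 and 39.8 FPKM in overexpression, against 21.4, 25.3 and 24.97 FPKM in control vector libraries. The log2 fold change was 0.88 (SE 0.13, limma-trend adjusted p = 0.0280), and every overexpression library lay above every control vector library. The log2 fold change stayed between 0.78 and 0.99 in all 17 alternatives, but UHRF1 passed in only 9 of them. The limma-trend adjusted p was 0.105, 0.122 and 0.0713 without overexpression replicates 1, 2 and 3, and 0.0907 and 0.0820 without control vector replicates 1 and 2. The limma adjusted p was 0.144 with no filter, 0.0514 with a filter at 0.25 FPKM and 0.130 with no mean-variance trend. In 6 of these 8 fits 0 genes of the whole table passed. The other fits had 3 calls, without control vector replicate 1, and 11, with the filter at 0.25 FPKM. CBX5, the heterochromatin protein HP1 alpha, stood at 28.0, 33.2 and 32.0 FPKM in overexpression and at 16.3, 20.5 and 21.6 FPKM in control vector libraries, a log2 fold change of 0.67 that did not pass (limma-trend adjusted p = 0.0564) and passed in 4 of the 17 alternatives. The groups stood apart for 8 of the 32 genes, 7 higher and 1 lower, against 24.1% of all tested genes (14.2% higher and 9.9% lower).

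TRIM28, the corepressor that KRAB domains bind, stood at 16.98, 17.6 and 16.4 FPKM in overexpression and at 21.6, 25.03 and 17.4 FPKM in control vector libraries. Its highest overexpression library lay just above its lowest control vector library. SETDB1 stood at 7.91, 9.12 and 7.48 FPKM in overexpression and at 10.53, 8.18 and 11.2 FPKM in control vector libraries. Their log2 fold changes were -0.31 and -0.26 (limma-trend adjusted p = 0.316 and 0.439).

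**Figure D4:**
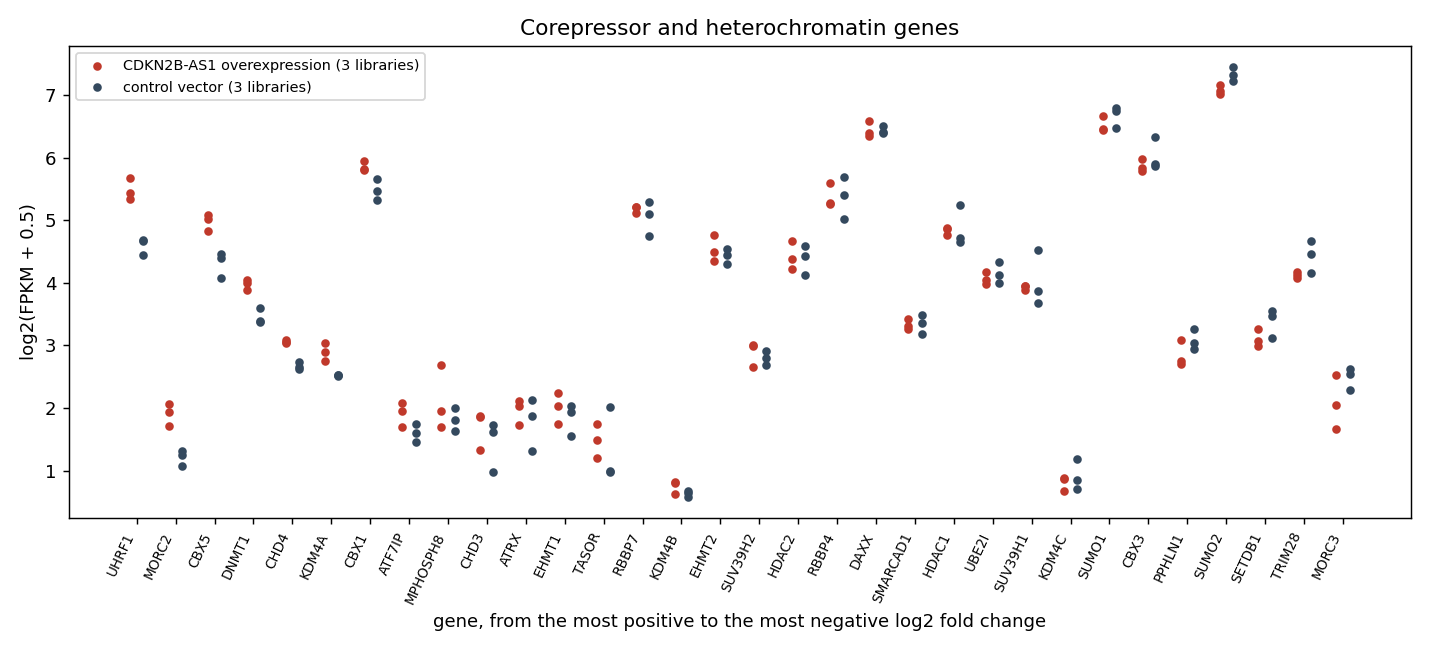
Level in each library, as log2(FPKM + 0.5), of the 32 corepressor and heterochromatin genes, ordered from the most positive to the most negative log2 fold change. UHRF1 at the left is the gene that passed the test, and TRIM28 and SETDB1 near the right have their overexpression points at or below the middle of the control vector points.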

How the data were processed

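Per the labels' protocols, the RNA came from an RNeasy column and became cDNA with a SMART-seq kit, and both ends of each fragment were read. The submitters' processing notes list the builds GRCh38.p13 and hg38 and the tools featureCounts 2.0.1 and STAR 2.7.9 with no options, and strand handling was not given there. The deposited values are FPKM, per the file headers, beside the length and place of each gene. Multiplied by length in kilobases they add up to 1e+06 in every library. Values up to 1000 fragments were multiples of 0.01 fragment in 100% of cases (tolerance 0.001), from which depth was recovered. Only 45.0% to 48.7% were whole, so the authors' fragments hold fractions and a count model was not the main test.

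All genes of the table were fitted together with limma 3.58.1 (R 4.3.3), using a mean-variance trend and no covariate, on FPKM logged after adding 0.5. This covered 13984 genes with at least 1 FPKM in at least 3 libraries, with Benjamini-Hochberg adjustment at 0.05, and limma-voom on the recovered fragments as an alternative. CDKN2B-AS1 was compared with an exact permutation test. The fit was tested on simulated data. The genes, lists and tests were chosen with earlier results of these data known. Named genes were those past the threshold, the 10 largest differences each way among tested genes with non-overlapping groups that reached a mean of 1 FPKM in either group, the 5 most abundant, the most abundant of each cluster and 11 genes with known roles; of the corepressor list, those past the threshold, TRIM28, SETDB1 and the 2 of smallest p. Transcripts came from GENCODE v29, promoters from RefSeq; protein sequences were not used here. Scaling, pseudocount, filter, test, length, overlap, pairing and each replicate were varied.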

Additional observations from a re-analysis of the deposited data

How the results depend on the processing

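The number of chromosome 19 ZNF genes that passed upward was 0 under all 18 alternatives run, and the number that passed downward was 0 except under 3 settings with 1 each: median-of-ratios scaling and array weights (ZNF581, limma adjusted p = 0.0406 and 0.0334) and the replicate block (ZNF256, limma adjusted p = 0.0357). Whether replicate numbers pair the samples is not known. Deviations from the group means had correlations of -0.02, 0.11 and 0.12 between same-numbered libraries. Overexpression replicates 2 and 3 correlated best with the same-numbered control vector library, and overexpression replicate 1 with control vector replicate 2 (0.10). With 3 libraries centred in each group these correlations constrain each other and cannot decide pairing. The replicate block moved the calls over all genes to 229 from 159. In 6 of the 18 alternatives 0 genes of the whole table passed, against 159 in the main fit. They were no filter, no mean-variance trend, and the fits without overexpression replicate 1, 2 or 3 or control vector replicate 2. Their 0 for the zinc finger genes therefore says nothing about the stability of this result. Calls over all genes were 3 without control vector replicate 1, 11 with a filter at 0.25 FPKM and 124 to 265 in the others. With a library left out, 13 to 26 of the zinc finger genes had an unadjusted p under 0.05. The matching share of all tested genes was not counted for those fits, so these counts cannot show an excess. For the main fit the shares were 12.5% of the zinc finger genes and 17.7% of all tested genes. The median log2 fold change lay between 0.05 (median-of-ratios scaling, where all tested genes had a median of -0.004) and 0.20 (TPM, where they had 0.15), and between 0.08 and 0.14 with a library left out. Clusters with a median above 0 were 7 of 9, 6 to 9 with a library left out, and 4 of 7 among the 43 tested genes that overlap no other gene.

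Of 37 named and tested genes, 32 kept their direction in every alternative that gave them a value (ZNF555 did not pass the filter with median-of-ratios scaling). The other 5 had values near 0. ZNF146 (-0.05) turned to 0.055 with TPM and lay between -0.249 and 0.168 with a library left out, above 0 without overexpression replicate 1 (0.091) or control vector replicate 3. ZNF574 (0.03) turned to -0.033 with median-of-ratios scaling, to -0.064 without overexpression replicate 1 and to -0.207 without control vector replicate 3, within a range of up to 0.154. ZNF507 (0.16) lay between -0.178, without control vector replicate 3, and 0.374. ZNF792 (0.05) turned to -0.0089 with median-of-ratios scaling and lay between -0.026, without control vector replicate 2, and 0.0896. ZNF45 (-0.04) turned to 0.070 with TPM and 0.093 with array weights, and lay between -0.318 and 0.133, above 0 without overexpression replicate 2 (0.042) or control vector replicates 2 (0.079) or 3. The cause was not tested. Few fragments limit the comparison for the least expressed genes: 7 to 10 of the 247 had under 3 fragments in an overexpression library and 14 to 18 in a control vector library. These counts were 9 and 10 in the shallowest libraries, overexpression replicates 1 and 2, and 18 each in control vector replicates 1 and 3. The part of depth in them was not tested.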
